A study of Mus musculus with 34 samples.

Results

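Pramel6, BC053393, Crxos, Spic and Calcoco2 are mouse genes with high RNA levels in the inner cell mass of the blastocyst and low levels in cultured pluripotent cells. They make up 5 of the 8251 genes measured by Affymetrix arrays through a probe set of a single gene symbol, and 6 of 10833 such probe sets. They were chosen from the data, as the 5 genes with the largest falls in embryonic stem cells relative to the inner cell mass. Their values in those cells are therefore given as a description, with no test. The last gene inside this choice was Spic, which was 14.9-fold lower in embryonic stem cells, and the first gene outside it was the trophectoderm gene Eomes, which was 12.1-fold lower.

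The study set pluripotent cells, both cultured and freshly isolated, beside somatic cells in 32 arrays that fall into 10 groups. The cultured lines were male embryonic germ cells from E12.5 germ cells at passage 19 (EGC, 3 arrays) and male embryonic stem cells at passage 9 to 14 (ESC, 2 arrays), both kept in LIF and serum. Primordial germ cells positive for an Oct4/GFP reporter were sorted at E13.5 from females and from males (PGC E13.5 female, 3 arrays, and PGC E13.5 male, 3 arrays) and at E11.5 without regard to sex (PGC E11.5, 4 arrays). The somatic groups were embryonic fibroblasts of E13.5 at passage 2 (MEF, 6 arrays), somatic cells of gonad plus mesonephros at E11.5, sorted as lacking the reporter (SGM, 4 arrays), neurospheres of the subventricular zone at passage 1 in EGF (NSC, 2 arrays) and sorted bone marrow stem and precursor cells of males (HSC, 2 arrays), the last 2 from mice of 8 weeks. The inner cell mass (ICM, 3 arrays) was freed from E3.5 blastocysts of mixed sex by immunosurgery, which lyses the outer cells with antibody and complement. ICM replicates 2 and 3 are labelled C57Bl/6 x C3H F1 and ICM replicate 1 as that F1 crossed once more, to CD1, whereas all other groups are C57Bl/6, so that strain and group cannot be told apart in any difference from the ICM. The labels call the replicates biological but do not say how many lines, animals or embryos stand behind an array.

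The inner cell mass is the inner group of cells of the blastocyst, from which the epiblast and primitive endoderm form and from which embryonic stem cells are derived, while the outer trophectoderm forms the placenta. Its cells pass through naive pluripotency, a transient state that culture in LIF holds in part. Pramel6 belongs to the Prame family of leucine-rich repeat proteins, whose relative Pramel7 is known to direct Uhrf1, a cofactor of DNA methylation, to degradation through a CUL2 ubiquitin ligase. Crxos lies on the opposite strand to the photoreceptor gene Crx and encodes homeodomain proteins of the preimplantation embryo. Spic encodes an ETS transcription factor known for its role in the red pulp macrophages of the spleen. Calcoco2, also called NDP52, is a receptor of selective autophagy, best known from human cells. BC053393 carries only the name of a cDNA clone, and no role is given to it here.

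The genes lie on chromosome 2 (Pramel6), chromosome 7 (Crxos), chromosome 10 (Spic) and chromosome 11 (BC053393 and Calcoco2). RefSeq's promoter table of the build GRCm38.p6 gave start sites for 4 of the 5 genes, with 3 start sites for Crxos. The 250 bases before a start are shown for 4 of these 6 windows, since Pramel6, BC053393 and Crxos had nearly the same profile over the cell groups and Spic a close one. That likeness rests on the high ICM level by which the genes were chosen, so nothing is read from it. Of the 3 Crxos windows, the one with motif matches is shown. Capitals mark matches to 2 short motifs, the ETS core GGAAGT or its reverse complement ACTTCC and the Klf motif GGGNGTGG.
Pramel6, chr2:87506315-87506564, plus strand: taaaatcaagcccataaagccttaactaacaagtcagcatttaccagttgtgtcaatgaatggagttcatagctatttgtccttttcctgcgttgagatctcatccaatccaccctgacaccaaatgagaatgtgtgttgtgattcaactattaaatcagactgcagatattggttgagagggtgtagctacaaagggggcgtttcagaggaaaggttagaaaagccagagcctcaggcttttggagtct
BC053393, chr11:46571263-46571512, plus strand: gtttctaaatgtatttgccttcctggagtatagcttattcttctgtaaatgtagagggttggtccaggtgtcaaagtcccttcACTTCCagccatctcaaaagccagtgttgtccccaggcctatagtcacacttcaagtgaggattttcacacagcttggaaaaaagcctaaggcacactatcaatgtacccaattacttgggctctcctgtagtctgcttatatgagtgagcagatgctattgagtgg
Crxos, the third start site, chr7:15901396-15901645, plus strand: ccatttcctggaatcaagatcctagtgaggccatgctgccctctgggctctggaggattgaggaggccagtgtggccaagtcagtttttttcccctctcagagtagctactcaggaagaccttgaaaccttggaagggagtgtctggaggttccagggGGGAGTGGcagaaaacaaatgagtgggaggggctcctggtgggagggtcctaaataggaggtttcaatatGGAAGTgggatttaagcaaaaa
Spic, chr10:88683024-88683273, minus strand: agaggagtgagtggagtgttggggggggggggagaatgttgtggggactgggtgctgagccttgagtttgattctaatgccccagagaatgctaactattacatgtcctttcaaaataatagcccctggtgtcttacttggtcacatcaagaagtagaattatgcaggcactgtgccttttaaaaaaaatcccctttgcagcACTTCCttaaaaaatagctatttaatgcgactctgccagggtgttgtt
The ETS core was found in 3 of the 6 windows, those of BC053393, Spic and the third start site of Crxos, and in 19.7% of the 32851 promoter windows of the same length. The Klf motif was found in 1 of the 6, against 15.9% of all windows. No window held the octamer ATGCAAAT, the Sox motif ATTGTT, the nuclear receptor motif AAGGTCA, the Crx motif TAATCC, the Tead motif GGAATG or the TATA motif TATAAA, searched on both strands. These occur in 1.6%, 9.4%, 4.1%, 6.3%, 12.6% and 12.4% of all windows, in the same order. The 6 windows held 0 to 3 CpG, against a median of 6 over all windows, and had a G and C content of 42.0% to 53.2%, against a median of 52.4%. A match here is a run of letters and not a binding site.

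Pramel6 was high on every ICM array and low on every other array. Its signal, on the log2 scale that all levels below share, was 5.05 to 5.48 on the 3 EGC arrays, 5.65 and 5.42 on the ESC arrays, and 11.44, 11.37 and 10.37 on the ICM arrays. The other 29 arrays together ran from 4.99 to 5.71, so that the lowest ICM array stood 4.66 above the highest of them. The mean was 45.9-fold lower in ESC than in ICM (log2 difference -5.52 ± 0.19, SE) and 56.7-fold lower in EGC than in ICM (-5.83 ± 0.17, SE). Uncultured germ cells were also low, with 5.24 to 5.54 on the PGC E11.5 arrays, a mean 50.2-fold lower than in ICM. Detection calls were not used here, so the low values may lie at background and a fold against them is only a rough measure. In bulk samples, moreover, fewer cells of a type and less RNA per cell cannot be told apart.

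BC053393 was likewise highest in the ICM, but its ICM arrays differed widely. It measured 3.19 to 3.98 on the 29 other arrays, against 9.58, 10.42 and 5.92 on ICM replicates 1, 2 and 3. The third ICM array was thus far below the other ICM arrays and still 1.93 above the highest array of any other group, ESC replicate 1. The ICM mean was 8.64 ± 2.40 (SD, n = 3), and the difference from it was -4.85 ± 0.61 (SE) in ESC and -5.37 ± 0.55 (SE) in EGC. Without ICM replicate 3 these differences were -6.22 and -6.73, folds of 74.4 and 106 in place of 28.9 and 41.2.

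Crxos was measured by 2 probe sets, both high in the ICM, which differed at low levels. Probe set 104104_at gave 3.09 to 3.17 on the EGC arrays, 4.06 and 3.67 on the ESC arrays, and 10.37, 10.64 and 10.15 on the ICM arrays. Probe set 95353_at, the brighter over all arrays and the one that represents the gene in the fit, gave 3.67 to 4.06 in EGC, 4.04 and 4.33 in ESC, and 7.69, 8.92 and 8.47 in ICM. The difference from ICM was -6.52 in ESC and -7.27 in EGC by the first probe set, and -4.17 and -4.52 by the second. Outside the ICM the group means of the first spanned 2.08 and those of the second 0.52, and the correlation of the probe sets over arrays was 0.954 with the ICM and 0.522 without it, as a description over 32 and 29 arrays. Crx, on the opposite strand, had group means between 7.61 and 8.10, with 7.70 in the ICM.

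Spic was the ICM gene of this set that also stood out in a somatic group. Its signal was 4.61, 4.87 and 4.56 in EGC, 4.45 and 4.60 in ESC, and 8.77, 8.01 and 8.49 in ICM. The HSC arrays, at 5.14 and 5.69, lay above all other arrays outside the ICM, the next being EGC replicate 2. The 3′ minus 5′ signal of the Gapdh control probe sets, a sign of RNA quality and amplification, also stood apart in HSC (4.54 to 4.61) and NSC (4.67 to 4.77), against 1.48 to 3.00 on the arrays of the other groups. That of actin was highest in EGC (1.54 to 1.68), against at most 1.16 elsewhere, and the part of either in these levels was not tested. The ICM mean was 8.03-fold above that of HSC, the smallest such gap of the 5 genes. The mean of 9 macrophage markers was 7.39 and 7.40 on the HSC arrays, 6.25 to 6.28 on the ICM arrays and at most 6.77 elsewhere. Macrophage markers were thus no higher in the ICM than in EGC, where their mean was 6.21 to 6.33, and their part in the HSC level of Spic was not tested. The HSC level was uneven over the 9 markers. Relative to ICM, Lyz2 (9.15 against 4.30) and Cd14 (10.74 against 8.24) were the furthest above. Itgam (6.20 against 6.16) was nearly level and Mrc1 (4.20 against 4.72) was lower.

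Calcoco2 was the gene of this set with the widest range of levels outside the ICM. It measured 5.95, 5.73 and 6.03 in EGC, 6.05 and 6.62 in ESC, and 10.94, 11.10 and 10.44 in ICM. In the germ cells it was 6.84, 7.27 and 6.56 on the PGC E13.5 female arrays, 4.43, 3.95 and 4.34 on the PGC E13.5 male arrays and 5.26 to 5.58 on the PGC E11.5 arrays. The somatic groups gave 2.77 to 2.96 in MEF, 2.83 to 3.01 in SGM, 4.08 and 4.15 in NSC and 4.66 and 4.14 in HSC. In order of their means the groups ran ICM, PGC E13.5 female, ESC, EGC, PGC E11.5, HSC, PGC E13.5 male, NSC, SGM and MEF. Arrays of PGC E13.5 female and ESC overlapped in range, as did those of HSC, PGC E13.5 male and NSC, and those of SGM and MEF. Group means outside the ICM spanned 4.01, against 0.52 for Pramel6, 0.52 for BC053393 and 1.40 for Spic. For Crxos they spanned 2.08 by 104104_at and 0.52 by 95353_at.

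**Figure D1:**
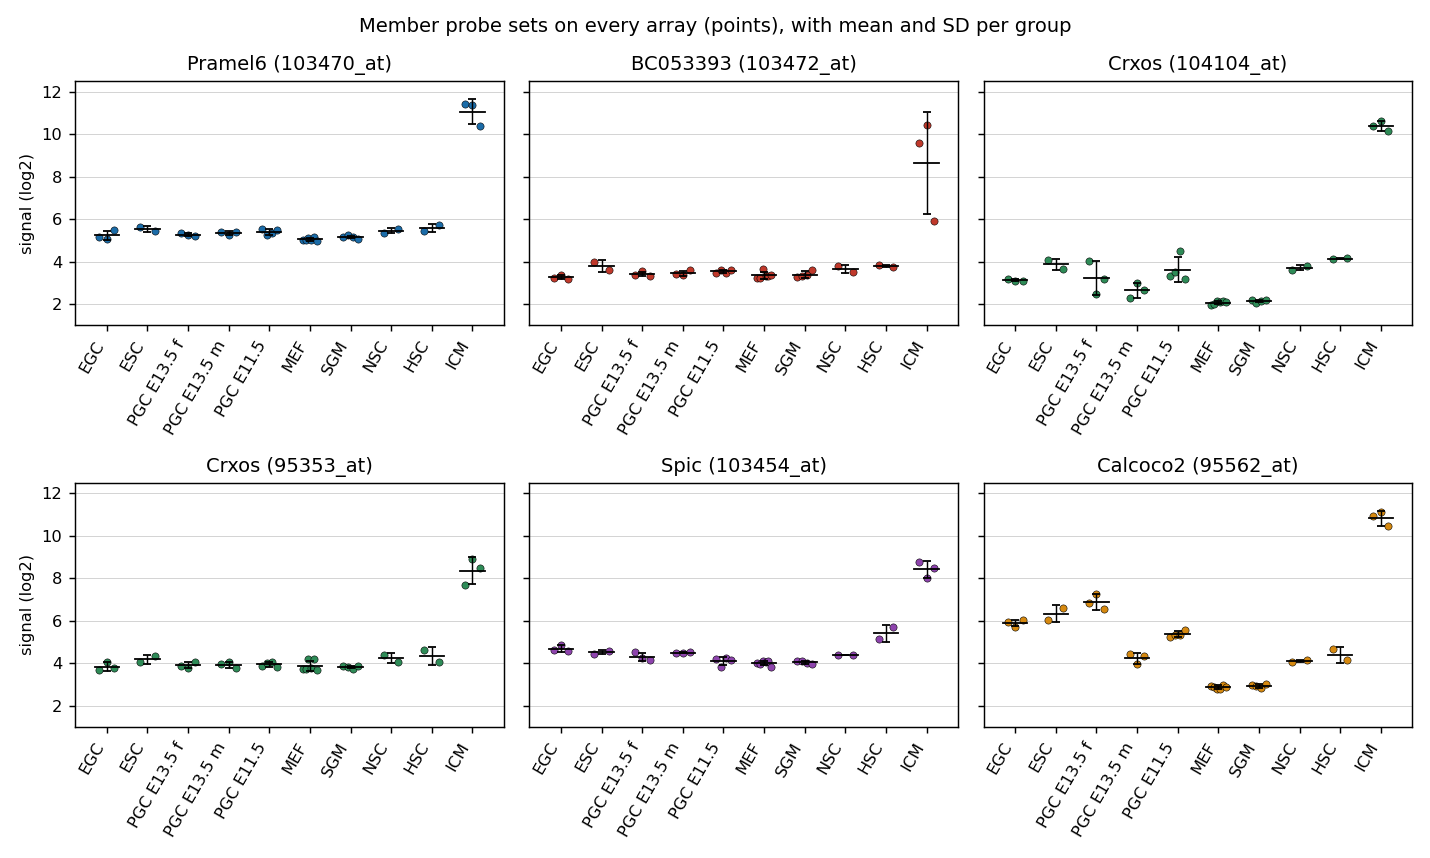
Signal (log2) of the 6 probe sets of the 5 genes, with a point per array and the mean and SD per group (n = 2 to 6 arrays). Every ICM array lies above every other array in each panel, the third ICM array of BC053393 is at 5.92, and Calcoco2 is spread over 4.01 between the group means outside the ICM.

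Every ICM array was above all 29 other arrays for each of the 5 genes, which holds for 2.28% of the 8251 genes. The choice of the genes bears on this count and nothing is read from it. By the distance between the ICM mean and the next highest group mean, Pramel6 (5.49), BC053393 (4.84), Crxos (4.01) and Calcoco2 (3.94) were the first 4 of all genes. Eomes followed with 3.23, Fbp2, a muscle form of fructose bisphosphatase, with 3.22, Pramel7 with 3.15 and Spic, as number 8, with 3.01. By the distance between the lowest ICM array and the highest other array, BC053393 was number 8 (1.93) and Spic number 7 (2.32). Both rankings use the ICM values that chose the genes and are a description. Crxos enters them by probe set 95353_at. By probe set 104104_at its distance was 6.24 between means and 5.68 between arrays, above those of Pramel6 (5.49 and 4.66). The place of Crxos in these rankings thus depends on the probe set. The genes were low in the cultured lines and also in the uncultured germ cells, SGM and HSC, far below the ICM in each. For Pramel6, BC053393 and Crxos, the ESC, HSC and NSC arrays had the highest means outside the ICM. Those groups also had the highest low end of the array, with a 1st percentile over all probe sets of 3.41 to 3.43 in ESC, 3.42 in NSC and 3.55 to 3.59 in HSC, against 3.18 to 3.34 in the EGC, germ cell, SGM and MEF arrays. The 5th percentile gave another order, with 4.29 in HSC, 4.13 to 4.17 in ESC and 4.08 to 4.13 in NSC, against 4.22 to 4.23 in PGC E13.5 male, so only HSC was highest by both. The part of this offset in the order of the low levels was not tested.

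**Figure D2:**
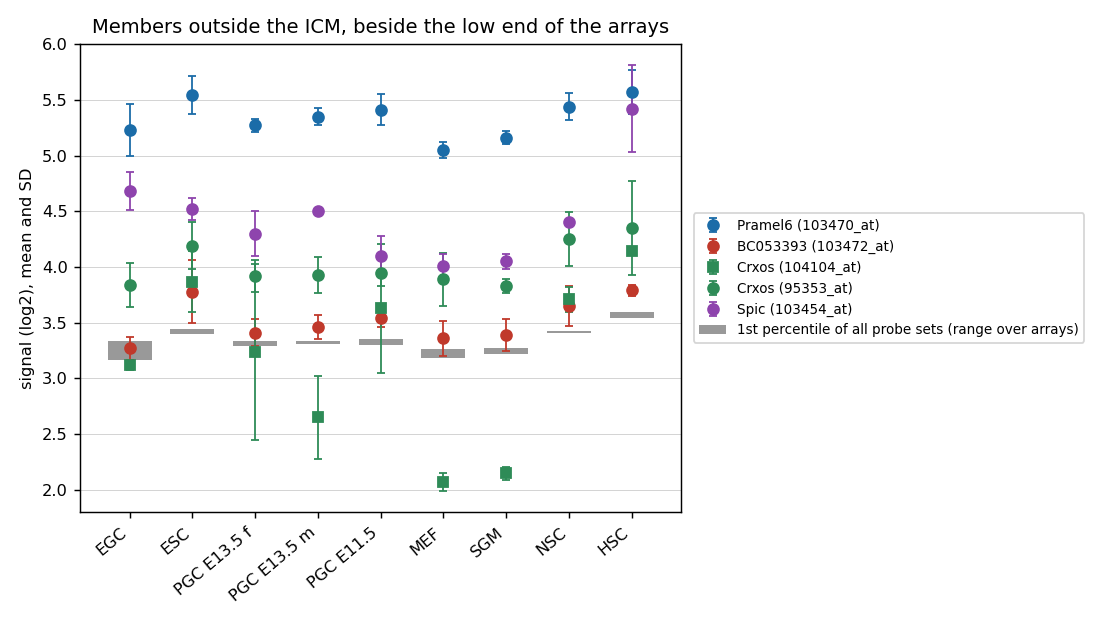
Group mean and SD (log2 signal) of the 5 probe sets of Pramel6, BC053393, Crxos and Spic outside the ICM, with grey bars for the range over arrays of the 1st percentile of all probe sets. The means of BC053393 run from 3.27 to 3.79 close above or within the grey bars, the EGC, PGC E13.5 female, PGC E13.5 male, SGM and MEF means of Crxos probe set 104104_at lie below them, and Spic is highest in HSC at 5.42.

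The profile over the 10 group means was nearly shared by 3 of the genes. Among 2424 genes whose group means span at least 2 on the log2 scale, those most like Pramel6 were BC053393 (Pearson r = 0.999), Crxos (0.997) and Fbp2 (0.993). Fbp2 also followed for BC053393 (0.990) and for Crxos (0.989), after the other two of these genes. Spic was most like Akr1c21 (0.993), an aldo-keto reductase, then Crxos (0.970) and Fbp2 (0.968). Calcoco2 was most like the gap junction gene Gjb5 (0.941), the ubiquitin ligase gene Znrf2 (0.939) and the homeobox gene En2 (0.920). These values describe 10 points each and share the single high ICM point.

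The third ICM array differed from the others in more genes than BC053393. Among all 8251 genes BC053393 was the one furthest below both other ICM arrays (-3.67 relative to the lower of them), and 16 genes, 0.194% of all, were at least 2 below both. The next were the galectin gene Lgals1 (-3.65), the keratin gene Krt18 (-3.57), Eomes (-3.51) and the fatty acid binding gene Fabp3 (-2.95). On ICM replicates 1 and 2 no gene was that far below the other arrays of the group. Of the 20 genes of a trophectoderm list, 8 were at least 1 below both on ICM replicate 3, which holds for 1.09% of all genes, and 4 of them were at least 2 below both. Krt18 measured 11.26, 11.14 and 7.57 on ICM replicates 1, 2 and 3, Eomes 10.61, 10.35 and 6.84, Tspan8 7.87, 8.61 and 4.98, and Gata3 8.36, 8.33 and 5.66. The mean of 10 defining trophectoderm markers was 6.81 to 6.95 in EGC and 6.59 to 6.81 in ESC, against 8.28, 8.28 and 6.78 on the 3 ICM arrays. Cdx2, another marker of that layer, had group means of 5.40 to 6.25 elsewhere, against 6.31, 6.37 and 5.83 on the ICM arrays. The mean of 11 pluripotency markers was 10.21 to 10.52 in EGC and 10.39 and 10.42 in ESC, against 10.50, 10.12 and 10.67 on the ICM arrays. Primitive endoderm genes also differed on ICM replicate 3, in both directions. Of the markers of that layer, Gata4 (8.63 in ICM, 8.66 in ESC) and Gata6 (6.47, 6.78) were no higher in ICM, while Sox17 (7.87, 7.23) and Pdgfra (10.07, 8.45) were. The mean of 10 such markers was 8.05 to 8.14 in EGC and 7.75 to 7.83 in ESC. It was 8.69 to 8.80 in SGM and 8.78 to 8.96 in MEF, so a high mean is not particular to that layer. The same mean was 8.67 to 8.71 on ICM replicates 1 and 2 and 9.04 on ICM replicate 3. Relative to the mean of the other ICM arrays, the laminin gene Lama1 was at 1.64 and the collagen gene Col4a1 at 1.39 on that array, and the adaptor gene Dab2 at -2.34. Trophectoderm markers thus moved with BC053393 over the ICM arrays and the primitive endoderm mean moved the other way, and the part of either in its level was not tested. ICM replicates 2 and 3 share a strain label and ICM replicate 1 has another, and the part of strain in these levels was not tested.

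The other 4 genes were much less lowered on the third ICM array. Relative to the lower of the other ICM arrays, Calcoco2 was at -0.50 and Pramel6 lower still, with the 10.37 given above, whereas Spic and the 95353_at signal of Crxos lay between the other arrays and the 104104_at signal just below them. Without ICM replicate 3, Pramel6 was 58.3-fold lower in ESC than in ICM, Calcoco2 25.7-fold, Crxos 17.4-fold and Spic 14.6-fold, while Eomes was 28.0-fold lower in place of 12.1-fold. The order of falls changed: BC053393 was then the first of all genes, Pramel6 the second, Eomes the third, Calcoco2 the fourth, Crxos number 7 and Spic number 10. Without that array Spic, and Crxos by 95353_at, would not have been among the 5 largest falls. Probe set 104104_at of Crxos does not enter this order. By it the fall in ESC was -6.52 with all ICM arrays, so the place of Crxos depends on the probe set.

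**Figure D3:**
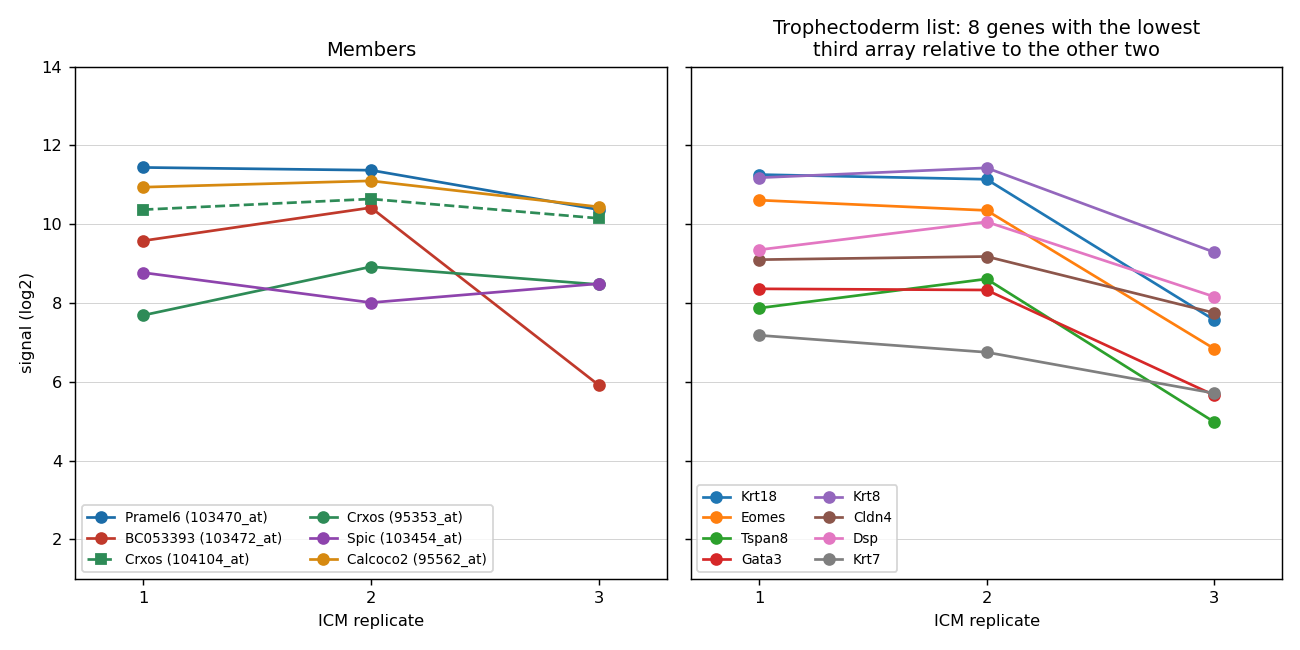
Signal (log2) on the 3 ICM arrays for the members' 6 probe sets (left) and for the 8 genes of the trophectoderm list lowest on the third array relative to the other arrays (right), with lines joining the points of a probe set. BC053393 falls to 5.92 on replicate 3 and Krt18 to 7.57, whereas Spic and Crxos probe set 95353_at lie within the range of replicates 1 and 2 on that array.

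Differences among germ cells, embryonic germ cells and somatic cells were not used in choosing the genes and were tested with limma over all 8251 genes, at an adjusted p under 0.05. Calcoco2 passed in 5 of the 6 comparisons. At E13.5 it was 6.27-fold higher in female than in male germ cells (log2 difference 2.65 ± 0.17, SE, adjusted p = 1.71e-11), with every female array above every male array. It was the only 1 of the 5 genes to pass there, and 8.62% of all genes did so. The arrays of these groups were apart in 34.8% of all genes, so the lack of overlap alone says little. The PGC E13.5 male values of Calcoco2, 4.43, 3.95 and 4.34, lie near the 5th percentile of those arrays (4.22 to 4.23). The sizes of its differences from that group, here and below, are thus only rough measures. The sexes moved in opposite directions from E11.5: Calcoco2 rose in female germ cells of E13.5 relative to PGC E11.5 (1.52 ± 0.16, adjusted p = 9.63e-08) and fell in male ones (-1.13 ± 0.16, adjusted p = 4.75e-06). The same PGC E11.5 arrays serve both, so the difference between the changes is the difference between the sexes at E13.5.

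Calcoco2 was also higher in embryonic germ cells than in uncultured germ cells of the same sex, PGC E13.5 male (1.66 ± 0.17, 3.17-fold, adjusted p = 2.26e-08). It was 1 of 5 genes to pass, against 30.7% of all genes. In E11.5 germ cells it was higher than in the somatic cells of the same tissue (2.44 ± 0.15, adjusted p = 1.11e-13), where it was again 1 of 5 and 50.2% of all genes passed. All 4 SGM values of Calcoco2 lie under the 1st percentile of those arrays (3.23 or more), as do all 6 MEF values (3.19 or more), so the size of this difference is only a rough measure. Between MEF and SGM the difference was -0.06 ± 0.14 (adjusted p = 0.743). None of the 5 genes passed in that limma comparison, none had an unadjusted p under 0.05, and 49.8% of all genes passed.

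Of the other genes in this fit, Spic alone was called, in a single comparison. Spic was 1.31-fold higher in male germ cells of E13.5, at 4.50, 4.48 and 4.51, than in PGC E11.5, at 4.21, 3.83, 4.23 and 4.15 (0.39 ± 0.14, adjusted p = 0.0208 by limma). These values lie near the 5th percentile of the arrays, 4.22 to 4.23 in PGC E13.5 male and 4.10 to 4.15 in PGC E11.5. The fold is thus only a rough measure. With Calcoco2, Spic made 2 of 5 genes called between these stages in males, against 52.4% of all genes. In females 1 of 5 genes, Calcoco2, was called, against 31.5%. The call for Spic was lost with each array centred on its median (0.31, adjusted p = 0.0673), with quantile normalization (0.31, adjusted p = 0.0623), and without PGC E11.5 replicate 2 (adjusted p = 0.087) or PGC E13.5 male replicate 1 or 3 (adjusted p = 0.0516 and 0.0558). Pramel6 differed by at most 0.25 in the 6 comparisons, that being PGC E11.5 over SGM (adjusted p = 0.159). BC053393 differed by at most 0.19, with standard errors of 0.43 to 0.55 that include the spread of its ICM arrays, since all groups share 1 estimate.

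For Crxos the result depended on the probe set. By 104104_at, in a fit over all 12422 probe sets, it was lower in PGC E13.5 male, at 2.27, 3.00 and 2.68, than in PGC E11.5, at 3.32, 3.52, 4.48 and 3.19 (-0.98 ± 0.25, adjusted p = 0.00282 by limma). It was also higher in PGC E11.5 than in SGM, at 2.19, 2.06, 2.16 and 2.17 (1.48 ± 0.23, adjusted p = 4.61e-06 by limma). By 95353_at the same differences were -0.03 and 0.12, neither called. All 3 PGC E13.5 male values and all 4 SGM values of 104104_at lie under the 1st percentile of those arrays, which was 3.32 or more in PGC E13.5 male and 3.23 or more in SGM.

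**Figure D4:**
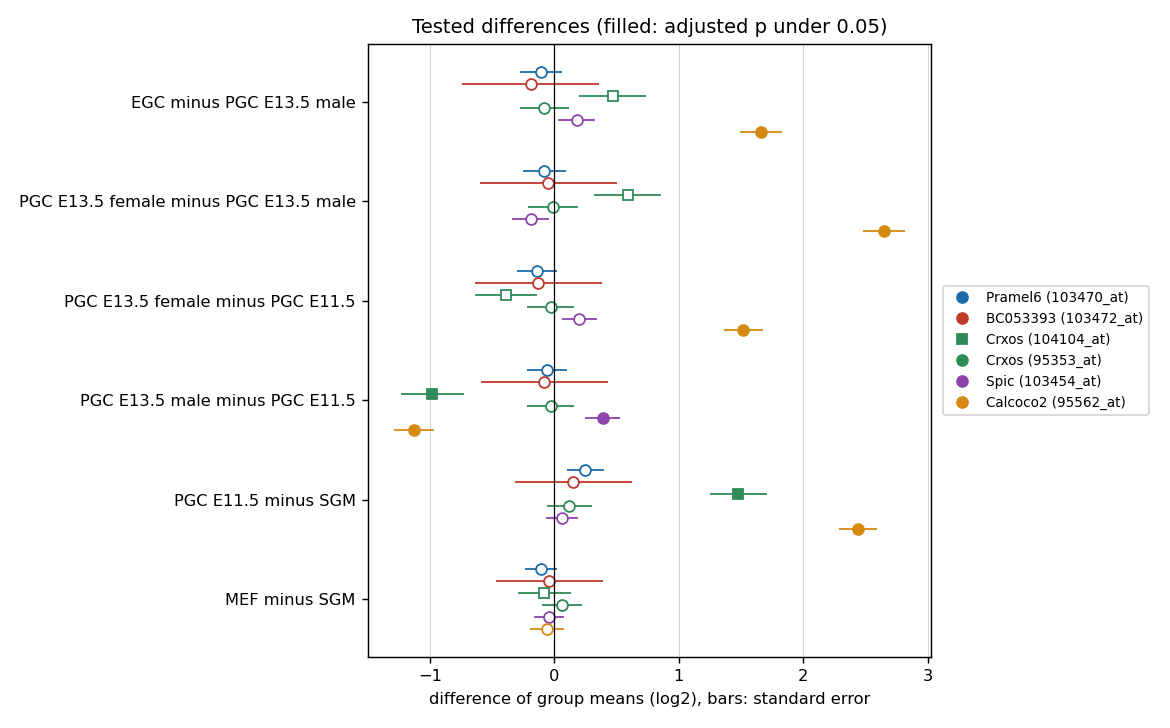
Difference of group means (log2, point) and its standard error (bar) for the 6 probe sets in the 6 comparisons that the choice of genes did not use, with filled points where the adjusted p was under 0.05. Calcoco2 is filled in 5 of 6 rows, from -1.13 to 2.65, and the square of Crxos probe set 104104_at stands apart from the circle of 95353_at in PGC E13.5 male minus PGC E11.5 and in PGC E11.5 minus SGM.

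Genes related to the 5 by family or pathway were read from lists that do not contain them. In ESC relative to ICM, 27.8% of all genes were called, 15.3% higher and 12.6% lower, and in EGC relative to ICM 53.0%, 30.8% higher and 22.3% lower. These comparisons share the ICM arrays and are not independent. Of 43 genes of the preimplantation embryo and 2-cell stage, 13 were measured, 1 higher and 5 lower in ESC (median -0.15, all genes 0.04). Pramel7, the relative of Pramel6, was lower in ESC than in ICM (log2 difference -3.52 ± 0.10, adjusted p = 9e-20) and 11.3-fold lower in EGC (-3.49 ± 0.09, adjusted p = 5.89e-21). Khdc1c, a KH domain gene, was 8.75-fold lower in ESC and 12.1-fold lower in EGC. Among 16 measured genes of the CUL2 ligase, Uhrf1 and DNA methylation, 5 were higher and 2 lower in ESC, and 6 were higher and 3 lower in EGC. Uhrf1 itself differed in opposite directions: it was 1.48-fold lower in ESC than in ICM (-0.56 ± 0.21, adjusted p = 0.0422) and 3.63-fold higher in EGC than in ICM (1.86 ± 0.18, adjusted p = 3.7e-09). The methyltransferase gene Dnmt3a was 3.31-fold higher in EGC.

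Of 29 measured genes of selective autophagy, the pathway of Calcoco2, 3 were higher and 7 lower in ESC than in ICM (median -0.18, all genes 0.04), and 3 were higher and 17 lower in EGC (median -0.65, all genes 0.09). Gabarapl2, which encodes a protein of the autophagosome membrane, was 9.69-fold lower in ESC (-3.28 ± 0.14, adjusted p = 4.45e-16) and 8.34-fold lower in EGC (-3.06 ± 0.13, adjusted p = 9.2e-17). Map1lc3b, of the same family, was 3.80-fold lower in ESC, and the receptor gene Nbr1 was 3.23-fold lower in EGC. Between the sexes of germ cells at E13.5, where Calcoco2 was higher in females, 3 of the 29 were higher and 1 lower. Of all genes, 8.62% were called there in either direction. Tank was 2.23-fold higher in females and Gabarapl2 1.46-fold lower, opposite to Calcoco2.

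Relatives of Spic and Crxos differed in both directions between ESC and ICM. Of all genes, 15.3% were higher and 12.6% lower in ESC, and 30.8% higher and 22.3% lower in EGC. The lists are short and nothing is read from their counts. Among 18 measured ETS family genes, 4 were higher and 2 lower in ESC than in ICM, and 9 were higher and 3 lower in EGC. The largest called difference in ESC was that of Etv2, 1.63-fold higher. Of 17 measured genes of macrophages and the red pulp, where Spic acts, 1 was higher and 3 were lower in ESC, with Bach1, a repressor of haem response genes, 2.61-fold lower. Of 16 paired-like homeobox genes, 4 were higher and 3 lower in ESC, among them Rhox5, 5.99-fold higher, and in EGC 5 were higher and 0 lower.

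Genes of the pluripotent state changed in both directions. The 5 genes were chosen as the largest falls in ESC, so all other genes fall less there and nothing is read from that. Of 28 measured genes of naive pluripotency, 4 were higher and 8 lower in ESC than in ICM (median 0.04, all genes 0.04), and 9 were higher and 14 lower in EGC (median -0.34, all genes 0.09). The germ line and preimplantation gene Dppa3 was 3.94-fold lower in ESC and 8.41-fold lower in EGC, while Sox2 was 3.19-fold higher in ESC. Genes of the other blastocyst layers also differed: of 19 primitive endoderm genes 1 was higher and 10 lower in ESC, and of 20 trophectoderm genes 0 were higher and 9 lower. The ICM arrays were not alike in the latter. The mean of 10 trophectoderm markers was 8.28 on ICM replicates 1 and 2. On ICM replicate 3 it was 6.78, within the ESC range of 6.59 to 6.81. Without ICM replicate 3 the trophectoderm count was 12 lower, that of the preimplantation list 1 higher and 4 lower, that of selective autophagy 2 higher and 7 lower, and that of naive pluripotency 6 higher and 8 lower. The paired-like homeobox genes then had 4 higher and 1 lower, and selective autophagy in EGC 1 higher and 17 lower. The preimplantation list in EGC had 2 higher and 2 lower, against 3 higher and 4 lower with that array. Of all genes, 2109 were called in ESC and 4090 in EGC without that array, against 2296 and 4374 with it.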

How the data were processed

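RNA was amplified by 2 rounds of in vitro transcription, per the labels' protocols, and hybridised to Affymetrix arrays. The deposited values are log2 signals that the authors made with RMA (probe background removed, arrays normalized together, probes summarised per probe set), per the submitters' processing notes, which give no version. The table holds 34 columns, of which 2 (ESC replicate 3 and PGC E11.5 replicate 5) equal means of others within 1e-06 and were left out. The number of arrays limits the precision of each mean. Arrays carry no read depth, and 13 MEF probe sets exceed 16 on the log2 scale.

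The brightest probe set stood for a gene. A model of 10 groups was fitted by limma 3.58.1 under R 4.3.3 (lmFit, eBayes, 22 residual degrees of freedom), and p-values were adjusted by the Benjamini-Hochberg method over all genes, two-sided. The fit was tested on simulated data. Named are the 5 genes, their 3 most alike genes each, up to 4 genes per list and comparison with the largest called differences, and 4 markers per label check. Lgals1, Fabp3, Lama1, Col4a1, Dab2, the ESC value of Uhrf1 and genes given by rank were chosen after their values were seen. The macrophage markers Lyz2, Cd14, Itgam and Mrc1 were chosen in the same way. The members and the 14 lists were chosen with earlier results of these data known. Replicate numbers were not used as pairs, since they share no stated meaning. Residuals of arrays with the same number correlated between -0.566 and 0.521. They are centred within small groups and arrays of unlike number were not compared, so this range cannot tell whether samples are paired. Alternatives covered the columns, arrays, scaling, weights, probe sets, dim genes, prior, replicate block and each array left out.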

Additional observations from a re-analysis of the deposited data

Results flagged for a closer look

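MEF replicate 3 had a BC053393 signal of 3.67, apart from the other 5 MEF arrays, which ran from 3.21 to 3.37. It was the only 1 of 18 tests of a single array against its group to stand apart, and chance alone gives about 1 in 20. The change of Calcoco2 since E11.5 differed between the sexes by 2.65, female minus male. The difference was tested as the contrast of the sexes at E13.5 (adjusted p = 1.71e-11 by limma), since the PGC E11.5 arrays cancel.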

How the results depend on the processing

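Calcoco2 kept its direction and its call in all 5 comparisons that called it, under all 15 to 17 alternatives run for each. Its difference between the sexes at E13.5, female minus male, ran from 2.46 to 2.82, and that of PGC E11.5 over SGM from 2.35 to 2.47. The number of the 5 genes called between PGC E13.5 male and PGC E11.5 was 1 with arrays centred on the median or quantile normalized, and 1 to 2 with single arrays left out, Spic being the gene lost. In PGC E11.5 minus SGM it was 2 with only the arrays compared or with array weights (Pramel6 added, difference 0.25 and 0.26) and 2 with the mean over probe sets (Crxos added, 0.80). With the mean over probe sets Crxos was also called in PGC E13.5 male minus PGC E11.5 (-0.50), and its difference from ICM was -5.35 in ESC, -5.89 in EGC and -5.58 in PGC E11.5.

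The count of all genes called fell to 776 in ESC minus ICM and 2253 in PGC E11.5 minus ICM with only the arrays compared (from 2296 and 3446, with fewer samples in the fit). With array weights it was 1243 in PGC E13.5 female minus male and 4146 in female minus PGC E11.5 (711 and 2602). With only genes above the median mean, fewer genes were tested and the counts were 2529 (PGC E13.5 male minus PGC E11.5), 2674 (PGC E11.5 minus SGM), 2609 (MEF minus SGM), 1252 (ESC minus ICM), 2385 (EGC minus ICM), 1768 (EGC minus ESC) and 1936 (PGC E11.5 minus ICM). All 5 genes fall below that limit, so they have no value there. With single arrays left out, the counts ran from 389 to 740 in female minus male, 1360 to 2359 in ESC minus ICM and 2147 to 3014 in EGC minus ESC, the lowest being without PGC E13.5 female replicate 3, ESC replicate 1 and ESC replicate 2.

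Small differences that were not called changed sign, and the cause was not tested. With arrays centred on the median, these were Crxos in female minus male (0.02) and BC053393 (0.04), Spic (0.04) and Calcoco2 (0.02) in MEF minus SGM. With quantile normalization they were Crxos in EGC minus PGC E13.5 male (0.01) and in female minus male (0.03), and with the mean over probe sets Crxos in those comparisons (0.19 and 0.29) and in MEF minus SGM (-0.01). With single arrays left out, Crxos ran from -0.19 to 0.00 in EGC minus PGC E13.5 male, -0.09 to 0.06 in female minus male, -0.11 to 0.02 in female minus PGC E11.5, -0.09 to 0.06 in PGC E13.5 male minus PGC E11.5 and -0.01 to 0.09 in MEF minus SGM. BC053393 ran from -0.11 to 0.02 in female minus male and -0.10 to 0.03 in MEF minus SGM, and Spic from -0.06 to 0.00 in MEF minus SGM.

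The replicate numbers share no stated meaning. With the replicate block, 2243 genes were called in ESC minus ICM, against 2296 without it, and no call of the 5 genes changed in any comparison. The counts of list genes without ICM replicate 3 were chosen after seeing the data. Signal near the low end of the arrays limits what can be said of these genes outside the ICM, Calcoco2 in SGM, MEF and PGC E13.5 male included.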
